A study of Sus scrofa with 6 samples.

Results

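Myelin is the lipid-rich sheath that oligodendrocytes wrap around axons of the central nervous system. Oligodendrocytes arise from dividing precursors, and in the forebrain of large mammals the first of them mature while the cortex is still forming. The 4 genes described here stand for different parts of that sheath and of the cell that makes it. MBP, myelin basic protein, holds the cytoplasmic faces of the membrane layers together. OPALIN is a transmembrane protein of maturing oligodendrocytes, and SIRT2 is a deacetylase of tubulin and other proteins that is abundant in them. OMG, the oligodendrocyte-myelin glycoprotein, is a lipid-anchored surface protein that binds the Nogo receptor on axons and is also made by neurons.

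The members are all probe sets whose only gene symbol in the array annotation is MBP, OMG, OPALIN or SIRT2. These are 7 of the 23999 probe sets tested, and 4 of the 6765 gene symbols, with 4 probe sets for MBP and 1 for each of the others. The genes were chosen on signals of the same arrays, with their difference between the days known. The difference between the days is therefore given for them as a description, without a test, and supports nothing.

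Total RNA came from the cerebral cortex of untreated pig embryos at embryonic day 60 (E60, arrays 1, 2 and 3) and day 80 (E80, arrays 4, 5 and 6), with 1 embryo per Affymetrix Pig Genome Array. The surface of the pig cortex is smooth at the earlier day and carries its first folds at the later one, and the study asked which transcripts differ between them. The deposited MAS5 signal of a probe set is a linear intensity from 1 set of short probes. The sources used here give no strain or sex, and no litter for the single embryos, so that litter and day cannot be told apart, and p-values measure only the spread between these 6 embryos.

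The arrays had median signals of 55.6 to 64.8, and Spearman's rho across probe sets was 0.967 to 0.984 for pairs of the same day and 0.964 to 0.972 for pairs of different days. Array 6 stood apart in choroid plexus transcripts, where transthyretin (TTR), a protein secreted by that epithelium, read 4475 and no other array exceeded 15.1. Its signal for 28S ribosomal RNA was also the lowest, at 165, against 896 and 999.9 on arrays 4 and 5, which is the reverse of the order of MBP at E80, and 525 to 887 at E60. The part of this in the signals of the 4 genes was not tested. The log2 differences of the member probe sets are therefore given with and without array 6. Those of other genes are given with all arrays unless stated. The neuronal transcripts SNAP25 and SYT1 were present on all arrays, with signals of 1342 to 2030 and, on the brighter probe set of SYT1, 1647 to 2274. In bulk tissue a lower signal from fewer cells of a type cannot be told apart from less RNA per cell.

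MBP was 3.28-fold higher at E80 on its brightest probe set, and the size of the difference came from 2 of the 3 embryos. On this probe set (Ssc.4876.1.A1_at) the signals were 64.7, 52.9 and 42.6 at E60 and 162, 68.3 and 466 on arrays 4, 5 and 6 at E80. Array 5 lay just above the highest E60 array, while array 6 was 6.82-fold and array 4 was 2.36-fold above array 5. The mean signal was 53.4 ± 11.04 (SD, n = 3) at E60 and 232 ± 208 (SD, n = 3) at E80, a log2 difference of 1.71 with a standard error of 0.59 from the limma fit across all probe sets. Without array 6 the log2 difference was 1.00, and without array 5 it was 2.38.

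The other MBP probe sets gave smaller differences, and on each of them the days overlapped. On Ssc.19359.1.A1_at the signals were 61.6, 33.4 and 32.9 at E60 and 70.9, 49.8 and 84.2 at E80, a log2 difference of 0.71 (standard error 0.31). Arrays 4 and 6 were above all 3 E60 arrays there, and array 5 was not. On Ssc.19359.2.S1_at the signals were 72.2, 32.3 and 38.2 at E60 and 59.9, 33.5 and 68.8 at E80, and the log2 difference was 0.21 (standard error 0.37). Array 1 was the highest of all 6 arrays on this probe set, so that no E80 embryo stood above E60. The dimmest, Ssc.13952.1.A1_at, read 3.37 to 13.4 at E60 and 6.62 to 8.31 at E80, with a log2 difference of 0.17 (standard error 0.55). Its signals were below the median of the array on all 6 arrays. Leaving out array 6 gave log2 differences of 0.55, 0.0032 and 0.13 for these probe sets, in the order given. Without array 2 the difference of Ssc.19359.2.S1_at was -0.02, and without array 3 that of Ssc.13952.1.A1_at was -0.33, so neither has a stable direction. MBP is transcribed in several forms, and the sources used here do not say which of them each probe set reads.

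OMG was higher in each E80 embryo by a similar amount. Its signals were 53.1, 40.8 and 47.8 at E60 and 122, 102 and 139 on arrays 4, 5 and 6. The days did not overlap, and the highest E80 array was 1.36-fold above the lowest. The mean was 47.2 ± 6.18 (SD, n = 3) at E60 and 121 ± 18.3 (SD, n = 3) at E80, a log2 difference of 1.35 (standard error 0.18). It was 1.25 without array 6.

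SIRT2 had the smallest difference of the 4 genes on their brightest probe sets, with little spread between embryos. The signals were 501, 420 and 428 at E60 and 636, 581 and 678 at E80. The days did not overlap, and the highest E80 array was 1.17-fold above the lowest. The mean was 450 ± 44.7 (SD, n = 3) at E60 and 632 ± 48.7 (SD, n = 3) at E80, a log2 difference of 0.49 (standard error 0.11), or 1.41-fold, and 0.44 without array 6. Among the members, SIRT2 alone had signals above the array median on all 6 arrays.

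OPALIN was read at very low signals on every array. They were 3.31, 2.52 and 1.16 at E60 and 8.94, 18.1 and 5.77 on arrays 4, 5 and 6, all below the median of their array. The days did not overlap, and here array 5 was the highest and array 6 the lowest of E80. The log2 difference was 2.20 (standard error 0.63), from a mean of 2.33 ± 1.09 (SD, n = 3) to 10.9 ± 6.42 (SD, n = 3). It was 2.58 without array 6 and 0.31 after 32 was added to each signal, which shrinks the differences of dim probe sets.

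**Figure D1:**
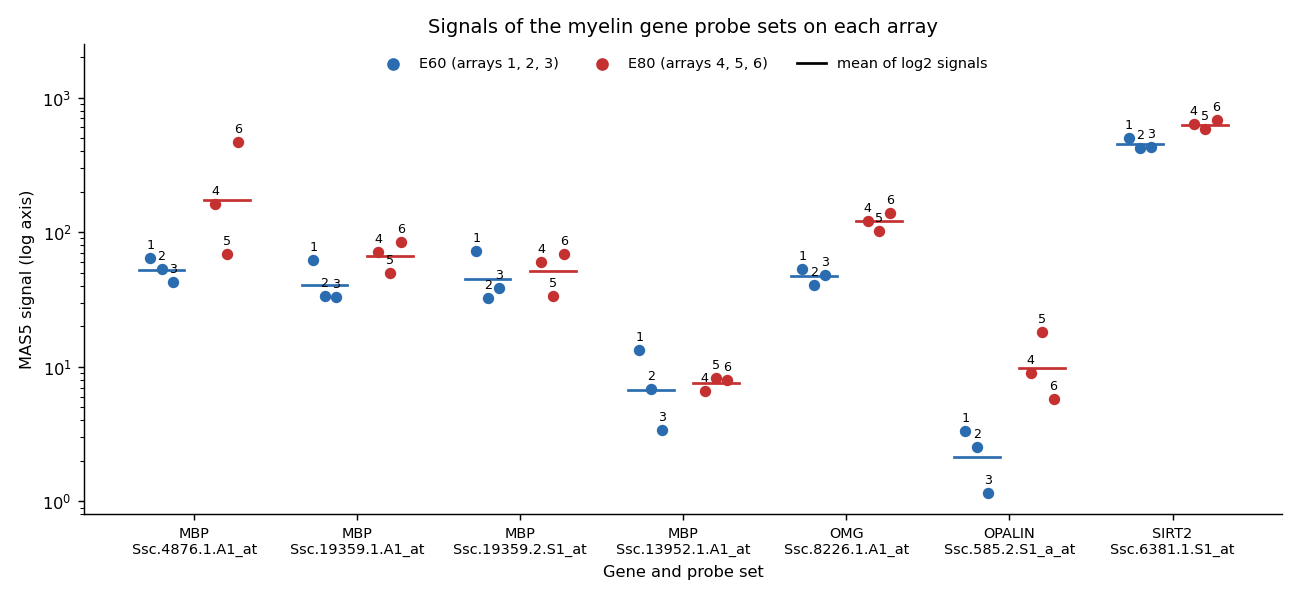
MAS5 signal (vertical axis, log scale) of the 7 probe sets of MBP, OMG, OPALIN and SIRT2 on each array. Numbered points are single embryos (blue, E60; red, E80) and bars are means of the log2 signals. For the brightest MBP probe set array 5 (68.3) lies next to array 1 of E60 (64.7), while for OMG and SIRT2 the 3 E80 points lie close together above E60.

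On 4 of the 7 probe sets, 1 for each gene, all E80 arrays were above all E60 arrays, against 9.25% of all probe sets. A single probe set, that of OMG, was past an adjusted p of 0.05 in limma in the direction of E80, against 0.933% of all probe sets. Both counts rest on the contrast the genes were chosen from, and nothing is read from them.

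Each E80 embryo was then set against the E60 mean by itself. Array 4 was above all E60 arrays on 5 of the 7 probe sets (22.7% of all probe sets), array 5 on 4 (28.5%) and array 6 on 5 (26.3%). The embryo of array 4 had log2 distances from the E60 mean of 1.62 for the brightest MBP probe set, 1.37 for OMG, 2.07 for OPALIN and 0.50 for SIRT2. In the same order the distances were 0.38, 1.12, 3.09 and 0.38 on array 5, and 3.15, 1.56, 1.44 and 0.60 on array 6. The 3 E60 embryos spanned -0.30 to 0.30 for this MBP probe set, -0.20 to 0.18 for OMG, -0.88 to 0.64 for OPALIN and -0.09 to 0.16 for SIRT2. Array 5 thus lay just above the E60 range in MBP and far above it in OMG and OPALIN. For OPALIN this rested on very low signals. With 32 added to each signal, the distance on array 5 was 0.55 for OPALIN and 0.76 for OMG.

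The order of the E80 embryos was shared by most of the probe sets. On 5 of the 7, those of OMG and SIRT2 and the 3 brighter ones of MBP, the signal was highest on array 6, then 4, then 5, an order found in 17.8% of all probe sets. The 3 MBP probe sets read the same gene and are not independent. The gaps differed widely, since array 6 was 6.82-fold above array 5 on the brightest MBP probe set, 1.69-fold and 2.05-fold on the next 2, 1.36-fold for OMG and 1.17-fold for SIRT2. OPALIN was the other way round, with array 6 at 0.318 times array 5. Over all probe sets, 4.18% had a range across the E80 arrays as wide as that of the brightest MBP probe set. For OMG this share was 53.5% and for SIRT2 79.1%. Among probe sets brighter than the median the shares were 0.117%, 29.1% and 65.0% in the same order. The MBP probe set was above the array median on the 3 E80 arrays only, so its place among the brighter probe sets rests on its E80 signals. At E60, array 1 had the highest signal on all 7 probe sets, and it had the highest E60 signal on 35.8% of all probe sets. This was seen after the values were known and was not tested.

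**Figure D2:**
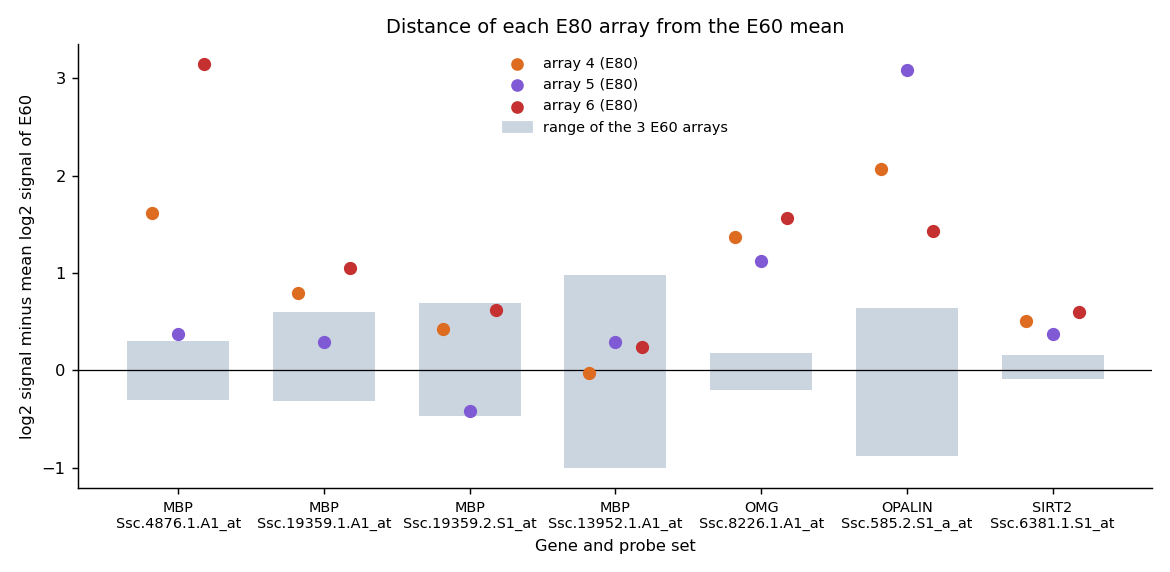
Log2 signal of each E80 array minus the mean log2 signal of E60 (vertical axis) for the 7 member probe sets; grey boxes span the 3 E60 arrays. Array 6 is 3.15 above the E60 mean on the brightest MBP probe set and array 5 is 0.38 above it, whereas the 3 arrays lie between 1.12 and 1.56 for OMG.

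Markers of other cells also differed between the E80 embryos, and the microglial, astrocyte and choroid plexus sums were highest on array 6, as MBP was. In these sums array 5 was slightly or clearly above array 4, which differs from the order of MBP. The striatal sum, from 3 genes, did have that order, as given further on. Each sum, and each count of genes highest on array 6, takes the brightest probe set of a gene. The microglial list, of which 7 of 12 genes were measured, had a summed signal of 176.7 to 279.7 at E60 and of 265, 270 and 754 on arrays 4, 5 and 6, with 5 of the 7 genes highest on array 6. The astrocyte list (11 of 13 genes) summed to 5717 to 6399 at E60 and to 8527, 8755 and 11913 on arrays 4, 5 and 6. GFAP, the astrocyte intermediate filament, had signals of 456, 678 and 1258 on these arrays against 179 to 209.6 at E60 on its brightest probe set (log2 difference 1.89, adjusted p = 0.0304 from limma). The choroid plexus list (6 of 12 genes) summed to 531 to 565 at E60 and to 390, 689 and 6006 at E80, with each of the 6 genes highest on array 6. Array 4, where MBP was 3.07-fold above the E60 mean, had the lowest choroid plexus sum of all arrays, of which IGF2 made 278. TTR alone read 15.1, 6.25 and 4475 on arrays 4, 5 and 6 against 1.47 to 3.70 at E60. Its order among the E80 embryos was that of MBP. The part of these cells in the MBP signals of the E80 arrays was not tested.

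Array 5, which had the lowest E80 signals of OMG, SIRT2 and the 3 brighter MBP probe sets, had the highest sum of the meningeal and fibroblast list (9 of 12 genes), at 4565. E60 had 3546 to 4019, and arrays 4 and 6 had 2912 and 2975. The neuronal list (7 of 13 genes) differed less, with sums of 13294 to 14520 at E60 and of 17444, 16708 and 17270 at E80. The endothelial list (10 of 12 genes) summed to 1606, 1839 and 1577 at E80 against 1918 to 1944 at E60. The radial glia list (8 of 13 genes) summed to 5367 to 5518 at E60 and to 4952, 5421 and 5443 on arrays 4, 5 and 6, a sum made mostly by FABP7 and VIM. Of its 8 probe sets limma called 3 higher, HOPX, FAM107A and TNC, and 0 lower, against 0.933% and 1.01% of all probe sets. The median log2 difference was 0.48, and 5 of the 8 were positive. The others were VIM at -0.38 (limma's adjusted p = 0.179), HES1 at -0.34 (adjusted p = 0.287) and FABP7 at -0.03 (adjusted p = 0.903). The erythroid list (4 of 11 genes) summed to 1012 to 1226 at E80 and 1107 to 1222 at E60. For striatum, 3 of 10 genes summed to 344.5 to 909 at E60 and to 282, 196 and 530 on arrays 4, 5 and 6, which is the order of MBP among the E80 embryos, with arrays 4 and 5 below E60. Of the 12 genes of the Schwann cell list only MPZL2 and S100A4 were measured (sums of 22.7 to 56.2 at E60 and 9.88 to 51.3 at E80), so that myelin of peripheral nerve could not be checked by its defining genes. No marker signal was at 0, and the part of these differences in the signals of the 4 genes was not tested.

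**Figure D3:**
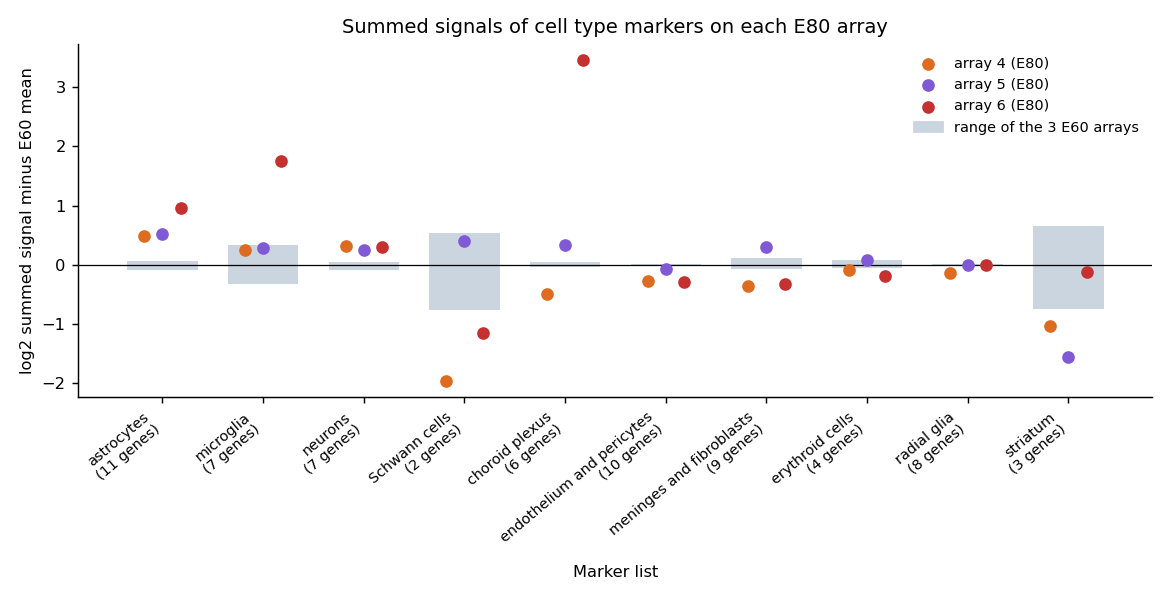
Summed signal of the marker genes of each cell type (brightest probe set per gene) on each E80 array, as log2 distance from the E60 mean; grey boxes span the 3 E60 arrays and gene numbers stand in brackets. The choroid plexus, microglial and astrocyte sums are highest on array 6 (6006, 754 and 11913), and the neuronal sums lie close together.

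The other measured proteins of the myelin sheath did not pass the test in either direction. Of 27 genes on this list 16 were measured, and the 12 besides the members had 19 probe sets, of which limma called 0 higher and 0 lower, against 0.933% and 1.01% of all probe sets. At an unadjusted p under 0.05 there were 4 higher and 1 lower, where 7.12% of all probe sets were higher and 10.8% lower at that level. Their median log2 difference was 0.18, and over all probe sets it was -0.05. Several probe sets of the list were dim, and 7 of the 19 were above the median signal of all probe sets. MOG, a surface protein of the outermost myelin layer, was not analysed here.

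CD9, a membrane protein of oligodendrocytes and other cells, came nearest to the threshold. Its signals were 119, 113 and 100.1 at E60 and 191, 154 and 234.5 on arrays 4, 5 and 6, a log2 difference of 0.79 (standard error 0.17, limma's adjusted p = 0.0598). The days did not overlap, and the order of the E80 embryos was that of MBP. It passed at an adjusted p of 0.0440 after quantile normalization. The small heat shock protein CRYAB had a log2 difference of 1.16 (adjusted p = 0.128) on its brighter probe set and -0.85 (adjusted p = 0.426) on the other. The tetraspanin TSPAN2 was at 0.43 (adjusted p = 0.139) and 0.18 (adjusted p = 0.604), and the junction protein JAM3 at -0.61 (adjusted p = 0.138).

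The genes whose products are found almost only in myelin were near the bottom of the signal range. MAG, an adhesion protein of the innermost myelin layer, read 2.51 to 19.4 over the 6 arrays (log2 difference 0.04, adjusted p = 0.984). CNP, an enzyme of the sheath's cytoplasm, read 1.53 to 24.2 on its 2 probe sets. The 5 probe sets of MOBP, a small basic protein of compact myelin, read 0.268 to 10.2, with log2 differences of -0.03 to 1.19 that did not pass. ERMN, a cytoskeletal protein of late oligodendrocytes, read 5.22 to 9.08. At these signals a difference between the days could not be measured well with 3 arrays per day.

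CLDN11, which forms the tight junctions of myelin and is also known from other barrier cells, was bright and split the E80 embryos. Its signals were 579, 686 and 502 at E60 and 216, 669.5 and 198.5 on arrays 4, 5 and 6, a log2 difference of -0.93 (adjusted p = 0.286). Arrays 4 and 6 lay below E60 and array 5 within it. This is the reverse of the order of MBP, and array 5 also had the highest meningeal and fibroblast sum. Without array 5 the difference of CLDN11 was -1.50 at an adjusted p of 0.0210. On 11 of the 19 probe sets of the list array 6 was the highest of the E80 arrays, against 34.2% of all probe sets. The 11 include dim probe sets of MAG and MOBP and both probe sets of TSPAN2. They are not independent, and nothing is read from this count.

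Of 34 enzymes and other markers of mature oligodendrocytes, 16 were measured with 24 probe sets, and limma called 0 higher and 1 lower. At an unadjusted p under 0.05 there were 5 higher and 6 lower (7.12% and 10.8% of all probe sets). FRMD4B, a scaffold protein that is not restricted to this lineage, fell. Its mean signal was 350 ± 65.1 (SD, n = 3) at E60 and 151 ± 13.5 (SD, n = 3) at E80, which is a log2 difference of -1.20 ± 0.15 (standard error) at an adjusted p of 0.0159. It did not pass without array 1, 2 or 4, nor without the intensity trend of the fit. DNAJC6, a clathrin uncoating factor also found in neurons, differed by 0.43 on the log2 scale (adjusted p = 0.0516). The ceramide synthase CERS2, which makes the very-long-chain ceramides of myelin lipids, had -0.47 to -0.77 on its 4 probe sets (adjusted p = 0.0559 to 0.130). BCAS1, a marker of newly forming oligodendrocytes, read 16.4 to 21.5 at E60 and 20.2, 14.1 and 37.3 on arrays 4, 5 and 6. The median log2 difference of the list was 0.03.

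Markers of precursors were covered thinly. Only 4 of 22 genes on that list were measured, and PDGFRA, CSPG4 and GPR17 were not among them. Limma called 0 of the 9 probe sets higher and 0 lower, with 0 higher and 2 lower at an unadjusted p under 0.05 and a median log2 difference of -0.12. The proteoglycan versican (VCAN) had log2 differences of -2.72 (adjusted p = 0.0564) on a very dim probe set, -0.37 (adjusted p = 0.116) on its brightest and -0.82 to -0.12 on 3 more. The sulfatase SULF2 had 0.33 (adjusted p = 0.462).

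None of the measured transcription factors of the lineage passed the test. Of 26 genes 12 were measured with 18 probe sets, 6 of them above the median signal. Limma called 0 higher and 0 lower (2 higher and 1 lower at an unadjusted p under 0.05), with a median log2 difference of -0.35. OLIG1, which is needed for the maturation of oligodendrocytes, had signals of 756, 615 and 659 at E60 and 927.5, 716 and 997 on arrays 4, 5 and 6 (log2 difference 0.37, adjusted p = 0.216). The E80 embryos had the order of MBP, and array 5 lay within the E60 range. OLIG2, which specifies the lineage, had 0.64 (adjusted p = 0.249) on its brightest probe set, where array 6 was highest at 233, and -0.16 and -1.11 on the others. SOX10, an activator of MBP, was dim at 9.07 to 21.4 (log2 difference -0.02, adjusted p = 0.988). TCF7L2 was at -1.03 (adjusted p = 0.197) and -0.37 (adjusted p = 0.603), and SOX9 at -1.13 (adjusted p = 0.280).

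OMG is one of the ligands of the Nogo receptor, and its gene lies with EVI2A and EVI2B inside the NF1 gene in the pig reference annotation (Sscrofa11.1). NF1, which encodes a regulator of RAS, did not share the difference of OMG. Its signals were 242, 258.5 and 219.5 at E60 and 273, 220 and 249 at E80, a log2 difference of 0.04 (standard error 0.12, adjusted p = 0.895). EVI2A and EVI2B were not measured under these symbols. Of the 18 genes of the Nogo receptor list 7 were measured, none of them a receptor. Limma called 0 of the 9 probe sets besides OMG higher and 0 lower, with 0 higher and 1 lower at an unadjusted p under 0.05 and a median log2 difference of -0.47. RTN4, which encodes Nogo itself, was bright and level, at 2386 to 2722 at E60 and 2675 to 2848 at E80 (log2 difference 0.08, adjusted p = 0.662). The kinase ROCK1 had -0.76 to -0.94 on its 3 probe sets (adjusted p = 0.166 to 0.428), with E60 signals that spanned 38.6 to 92.8 on the one with the smallest p. The GDP dissociation inhibitor ARHGDIA had 0.55 (adjusted p = 0.535).

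SIRT2 was set beside the other sirtuins and proteins that it is known to deacetylate. Of 20 genes 11 were measured, and limma called 0 of the 18 probe sets besides that of SIRT2 higher and 0 lower (0 higher and 2 lower at an unadjusted p under 0.05), with a median log2 difference of -0.16. SIRT3, a sirtuin of mitochondria, had signals of 173, 184.5 and 210 at E60 and 220, 213 and 256 at E80 (log2 difference 0.28, adjusted p = 0.286). SIRT5 and SIRT6 had log2 differences of -0.0012 and -0.0045 (adjusted p = 0.998 and 0.992), and the acetyltransferase KAT8 had -0.20 (adjusted p = 0.407). The tubulin deacetylase HDAC6, which shares that substrate with SIRT2, had -0.19 to -0.79 on its 7 probe sets (adjusted p = 0.187 to 0.624). The tubulins TUBA1A and TUBA1B had 0.10 (adjusted p = 0.802) and 0.17 (adjusted p = 0.455), and FOXO3 had -1.29 (adjusted p = 0.257) and 0.21 (adjusted p = 0.765).

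**Figure D4:**
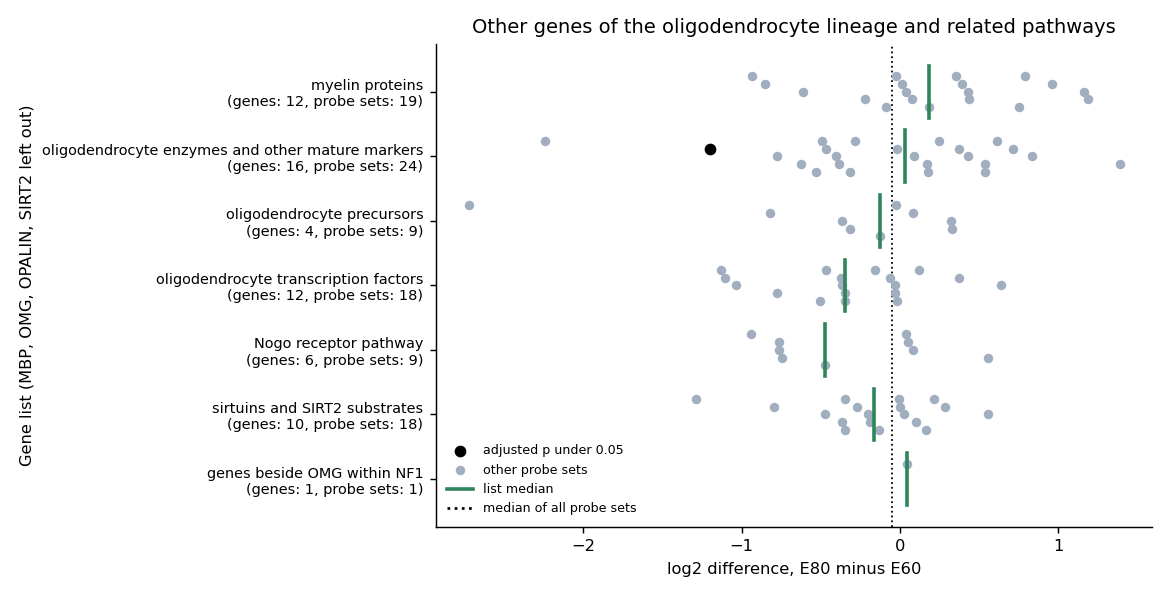
Log2 difference of E80 minus E60 (horizontal axis) for the probe sets of 7 gene lists without MBP, OMG, OPALIN and SIRT2. Black points are past an adjusted p of 0.05 in limma, green bars are list medians and the dotted line is the median of all probe sets (-0.05). The single black point is FRMD4B at -1.20.

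The profiles most like each member were found as the smallest root mean square difference of centred log2 signals over the 6 arrays, among 6089 probe sets (6090 for OPALIN) of other genes with 1 symbol and a mean log2 signal above the median. All members and candidates were read from the same 6 arrays, so the likeness includes whatever differs between these embryos. For the brightest MBP probe set these were RNF128 (0.42), LOC100154873 (0.54), SLC30A3 (0.58), PRKCB (0.60) and CALCR (0.60). The ubiquitin ligase RNF128 had signals of 105, 98.9 and 63.3 at E60 and 149, 100.5 and 399 at E80. Like MBP, it was near its E60 level on array 5 and highest on array 6, as were LOC100154873 and PRKCB. None of the 5 is on the myelin or oligodendrocyte lists.

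The nearest profiles to OMG were BEND6 (0.16), ISG12(A) (0.17), MAP1A (0.18), PYGM (0.19) and ISG15 (0.19). Their log2 differences were 1.04 to 1.58, and since they were picked for a profile like that of OMG, a difference between the days was fixed by that choice and is not a result. MAP1A encodes a microtubule-associated protein of mature neurons and PYGM a glycogen phosphorylase. For SIRT2 they were SLC25A5 (0.03), SCOC (0.06), PPP1R16B (0.06), OAT (0.08) and CYSTM1 (0.08), with log2 differences of 0.39 to 0.48. SLC25A5, the ADP/ATP carrier of mitochondria, read 382, 337 and 347 at E60 and 492.5, 443 and 527 at E80. OPALIN had no close match among these brighter candidates. Its own signals were below the array median, and dim probe sets were not among the candidates. The smallest difference was 0.64, for a further probe set of MAP1A, followed by LOC100621559 (0.67), BMPR1B (0.71), PROM1 (0.71) and OSBPL1A (0.74). Of these, BMPR1B, PROM1, OSBPL1A and LOC100621559 had the E80 order of OPALIN, with array 5 highest and array 6 lowest.

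**Figure D5:**
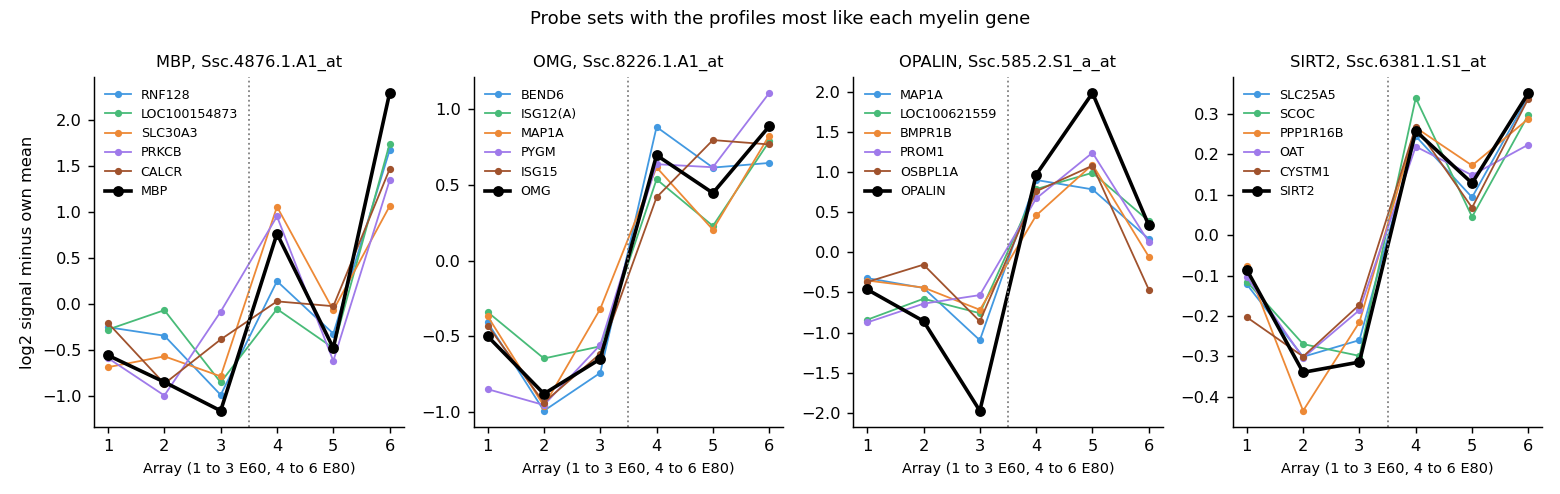
Log2 signal minus the probe set's own mean (vertical axis) on arrays 1 to 6 for the brightest probe set of each member (black) and the 5 probe sets with the most similar profiles (colours); lines link the values of 1 probe set, and the dotted line parts E60 from E80. The MBP panel shows the dip on array 5 and the peak on array 6, and the OMG and SIRT2 panels show a step between the days.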

How the data were processed

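The authors hybridised biotin-labelled RNA of 6 embryos to 1-colour Affymetrix arrays and deposited MAS5 signal intensity values, 1 per probe set and array, scaled to a common trimmed mean (150.02 after leaving out 2% at each end). The sources used here do not give the MAS5 version, detection calls or filters. From these values log2 signals were taken without a pseudocount, 124 control probe sets were left out, and the days were compared (E80 minus E60) by lmFit and eBayes of limma 3.58.1 under R 4.3.3, with an intensity trend and no covariates, over 23999 probe sets, with Benjamini-Hochberg adjustment and a threshold of 0.05. Of these, 10069 have 1 symbol, 198 several and 13732 none in the annotation, and no probe set with several was named. For 9961 of the 10069 the gene number was found in RefSeq, with 0 changed symbols.

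The members and gene lists were chosen with earlier results of these data known. The rule for named genes was each member probe set, each list probe set past the test, up to 4 per list with the smallest adjusted p, fixed lineage genes, and the 5 most similar profiles per member. Other genes and probe sets named were chosen after their values were seen: ERMN, MOBP, CLDN11, BCAS1, NF1, RTN4, SIRT5, SIRT6, TUBA1A, TUBA1B, the marker genes, and more than 1 probe set of some named genes. The limma procedure was tested on simulated data. Arrays have no counting depth, and 3 per day limit the precision. Alternatives were quantile normalization, common array medians, an offset of 32 on the signals, a filter to the brightest 66% of probe sets, no intensity trend, and leaving out each array.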

Additional observations from a re-analysis of the deposited data

How the results depend on the processing

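The members' log2 differences were recomputed under every alternative except leaving out the intensity trend. Of these, 63 stayed within the spread between replicates of the main value, 2 moved further and 3 changed sign. The 63 include 5 under the filter to the brightest 66% of probe sets, which cannot change a log2 difference. Of the distances of single E80 arrays, recomputed under the alternatives that can change them, 114 stayed, 7 moved further and 5 changed sign. The number of member probe sets past the threshold, 1 (OMG), ran from 0 to 2 and was 0 when array 1, 2 or 4 or the intensity trend was left out. The members were chosen on this contrast, so these counts describe the fits and are no test of the genes.

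Adding 32 to each signal lowered the log2 difference of OMG from 1.35 to 0.95 and that of OPALIN from 2.20 to 0.31, and gave -0.0011 for MBP Ssc.13952.1.A1_at. Leaving out 1 array moved that probe set between -0.33 and 0.66 and MBP Ssc.19359.2.S1_at between -0.0236 and 0.56. The distance of Ssc.13952.1.A1_at from E60 on array 4 (main value -0.03) was 0.0850 after quantile normalization, 0.15 with common array medians and -0.53 to 0.46 with 1 array left out, and on arrays 5 and 6 it ran from -0.21 to 0.79 and from -0.26 to 0.73. The causes were not tested.

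Probe sets called higher numbered 224, with 353 among the brightest 66%, 0 without the intensity trend and 0 to 178 with 1 array left out. Those called lower numbered 243, with 108 for common array medians, 410 among the brightest 66%, 0 without the trend and 1 to 189 with 1 array left out. At an unadjusted p under 0.05 there were 3706 without the trend in both directions together and 3133 to 4686 with 1 array left out. Of the myelin proteins, 1 (CD9) was called higher with quantile normalization, common medians and the brightest 66%, and 0 to 1 were called higher, and 0 to 1 lower (CLDN11, without array 5), with 1 array left out. Of the enzymes and mature markers, 1 (DNAJC6) was called higher with common medians and the brightest 66%, and against 1 called lower there were 3 among the brightest 66% (FRMD4B and both CERS2 probe sets with the smallest p), 0 without the trend and 0 to 2 with 1 array left out. With 3 arrays per day, small differences at dim probe sets such as those of OPALIN, MAG and CNP could not be measured well. No paired analysis was possible because nothing in the labels ties an embryo of one day to an embryo of the other, and the replicate numbers used here only follow the order of the samples.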
